A study of Mus musculus with 36 samples.

Results

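The superficial zone and lubricin genes are Prg4, Erg, Creb5, Cilp, Cilp2, Clu, Gas1, Thbs4 and Abi3bp, 9 of the 23626 genes with a row in the RNA count tables. They were picked by name, for their association with the surface layer of articular cartilage, and the rule that finds them uses no measured value. Each gene was found by its RefSeq transcript, and where several transcripts of a gene had a row the one with the highest mean count over the 12 RNA libraries stood for it. For DNA methylation the same genes were read as their gene bodies with 5000 bases on either side, which held 795 of the 1212744 CpG cytosines covered in all 12 oxidative bisulfite libraries.

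The study followed osteoarthritis after destabilisation of the medial meniscus (DMM), an operation that frees the medial meniscus and loads the cartilage abnormally. Male C57BL/6J mice, 12 weeks old at surgery, were operated on the right knee, and the left knee of the mouse was left unoperated as control, so that no sham-operated limb was compared. Cartilage of the femoral condyles and tibial plateaus was collected 4 or 12 weeks later, and every library held tissue pooled from 3 knees. There were 3 control and 3 DMM libraries at each time for RNA, for oxidative bisulfite sequencing (oxBS, which reads 5-methylcytosine, 5mC) and for plain bisulfite sequencing (BS, which reads 5mC and 5-hydroxymethylcytosine, 5hmC, together), with RNA and DNA from different mice. The 4 groups are therefore control at 4 weeks, DMM at 4 weeks, control at 12 weeks and DMM at 12 weeks, all of one wild-type strain with no named allele or agent. The counts of an RNA library summed to 27706547 to 62737656 over all transcript rows, where a read shared by transcripts counts in each, and to 19819774 to 45301829 with 1 row per gene. Because libraries are pools and the knees in each pool are not named, the RNA p-values measure the spread between pools, whereas the 5mC p and q values cover the counting error of the reads only. Time after surgery and age of the mice rise together and cannot be told apart.

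The superficial zone is the thin layer of flattened chondrocytes that faces the joint cavity. Its cells secrete lubricin, the mucin-like product of Prg4, which coats the cartilage and lets the surfaces slide, and people and mice without lubricin develop joint failure. The transcription factors ERG and CREB5 are known for their roles in articular chondrocytes, CREB5 as an activator of Prg4. The remaining genes encode matrix and secreted proteins of the upper cartilage and its neighbours (Cilp, Cilp2, Thbs4, Abi3bp and Clu) and a cell surface co-receptor for hedgehog ligands (Gas1).

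By its mean over the 12 libraries Prg4 had the highest count level, ranking 1 of 19898 genes with a count, but not in every group or library. Prg4 took 0.735 to 2.28% of the counts of a library with 1 row per gene. Levels are given as CPM, counts scaled to the library total after TMM scaling, which sets each library to a common reference. Cilp exceeded Prg4 in control libraries 1 and 2 at 4 weeks. By group means the matrix gene Chad exceeded Prg4 in both limbs at 4 weeks (20313 against 14572 CPM in control, 9570 against 9222 CPM in DMM). Cilp also exceeded Prg4 in control at that time (15177 CPM), and the calcified zone gene Spp1 did so in DMM (10578 CPM). Divided by transcript length, the mean over 12 libraries was 3309 CPM per kb for Prg4 (range 1669 to 5504), 3020 for Clu (1266 to 5530) and 2856 for Cilp (1101 to 4941), and the ranges of these 3 genes overlapped. Gas1 followed at 228 CPM per kb (45.6 to 708), below the lowest Cilp library in all 12. Thbs4 (69.7), Cilp2 (67.9) and Abi3bp (50.8 CPM per kb) lay close together with overlapping ranges, and each also overlapped Gas1. The transcription factor transcripts were the scarcest, with 14.7 CPM per kb for Creb5 (5.67 to 22.5) and 2.67 for Erg (1.27 to 9.37). All 9 genes passed the filter on low counts. By the ratio of the highest to the lowest library Gas1 varied most (15.5) and Prg4 least (3.30, against 3.33 for Thbs4). By the SD of log2 CPM, Creb5 (0.58) and Clu (0.59) varied less than Prg4 (0.61).

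The labelled tissue was checked on marker genes. All 9 chondrocyte markers were detected, and none of the markers of the other cell types listed here was at 0 in every library. The summed level of the chondrocyte markers was 8423, 6569 and 3689 CPM in control libraries 1 to 3 at 4 weeks and 6871, 4497 and 3334 CPM in the DMM libraries. At 12 weeks it was 4079, 6209 and 2877 CPM in control and 7573, 9842 and 6563 CPM in DMM, with every DMM library above every control library. Skeletal muscle markers (8 of 8 genes) summed to 7185 to 26025 CPM in control and 597 to 4298 CPM in DMM at 4 weeks, and to 108 to 18961 and 654 to 14027 CPM at 12 weeks. Markers of tendon, ligament and meniscus (5 of 5) summed to 212 to 651 CPM in control against 1038 to 1518 CPM in DMM at 4 weeks, and to 243 to 507 against 860 to 1730 CPM at 12 weeks. Most of this sum was Fmod, with means of 441 against 1116 CPM at 4 weeks and 333 against 1372 CPM at 12 weeks. The 8 fibroblast and synovium markers summed to 3224 to 6092 against 6091 to 9720 CPM at 4 weeks and to 6357 to 12314 against 8506 to 11975 CPM at 12 weeks. Most of the 12-week sum was Col1a1 (mean 8020 CPM in control and 7476 CPM in DMM). Of the 8, DESeq2 called 3 higher and 0 lower in DMM at 4 weeks (2.65% of all genes called). At 12 weeks it called 3 higher (Col3a1, Thy1 and Pdpn) and 1 lower (Vcam1), with 2.91% of all genes called. Neutrophil and marrow markers (5 genes) summed to 6927 to 33002 CPM, above the chondrocyte sum in every library except control library 1 of 4 weeks, erythroid markers (3) to 6342 to 18650 CPM and osteoblast markers (4) to 2876 to 11515 CPM. Control library 3 of 4 weeks, the lowest of the 3 controls for all 9 genes, had the highest erythroid sum of the 4-week libraries (18650 CPM, against 6573 and 8628 CPM in the other controls) and the highest neutrophil and marrow sum (20887 CPM, against 6927 and 11921 CPM), and the part of these cells in its values was not tested. In such bulk tissue, fewer cells of a type and less RNA per cell cannot be told apart.

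No difference between DMM and control limbs passed the threshold for any of the 9 genes at either time when tested by quasi-likelihood in edgeR and adjusted over all genes by Benjamini-Hochberg. At 4 weeks 7 of the 9 had a negative log2 fold change, with a median of -0.75, against 47.5% positive and a median of -0.03 among all genes tested. At 12 weeks all 9 had a positive log2 fold change, with a median of 0.63, against 51.9% positive and a median of 0.01 among all genes. None of the 9 was called at either time, where the share of all genes called was 0% at 4 weeks (0 of 15524, with 2085 genes at an unadjusted p under 0.05 and 516 genes called by DESeq2) and 0.00647% at 12 weeks (1 of 15448).

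**Figure D1:**
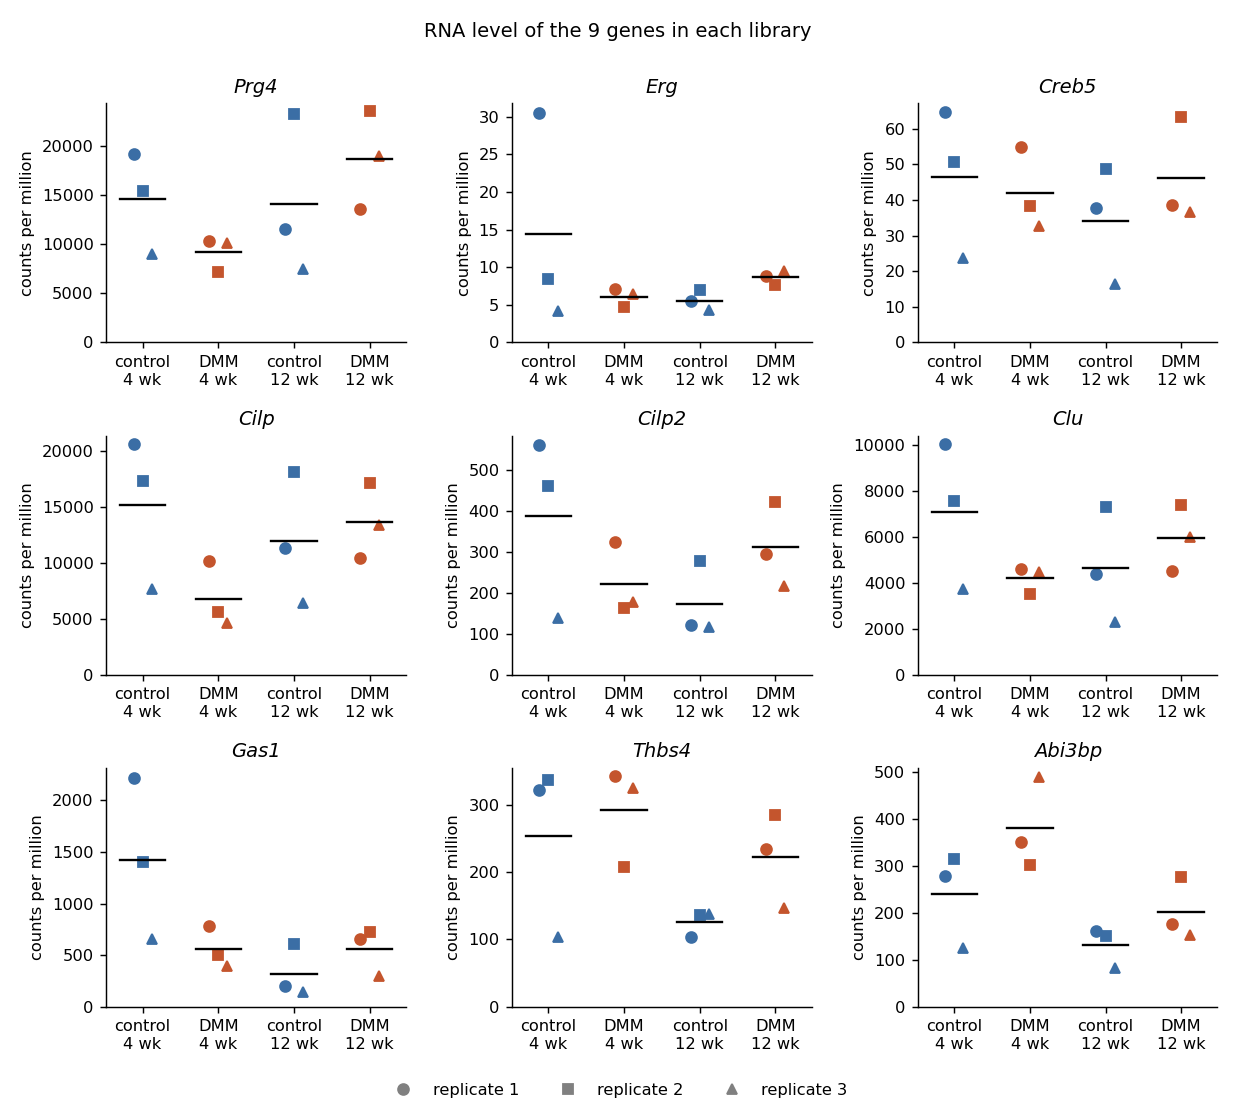
RNA level of the 9 genes, in TMM-scaled CPM, in each of the 12 libraries (points, shaped by replicate number; bars are the mean of 3 libraries; blue control, orange DMM). Control library 3 was the lowest of its limb for all 9 genes at 4 weeks and for all but Thbs4 at 12 weeks, and the DMM libraries at 12 weeks lay apart from the control libraries only for Erg and Thbs4.

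Prg4, the lubricin gene, stood at 19250, 15407 and 9058 CPM in the control limb and at 10348, 7138 and 10180 CPM in the DMM limb at 4 weeks. DMM libraries 1 and 3 exceeded the lowest control library, so the groups overlapped. The means were 14572 ± 5147 and 9222 ± 1806 CPM (SD, n = 3), a log2 fold change of -0.66 (SE 0.40, edgeR adjusted p = 0.445). At 12 weeks Prg4 was at 11547, 23294 and 7489 CPM in control and at 13583, 23544 and 19012 CPM in DMM. Again the groups overlapped, because 1 control library reached the level of the highest DMM library, and the log2 fold change was 0.42 (SE 0.42, edgeR adjusted p = 0.625).

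Prg4 has 2 annotated variants with rows in the tables, and the longer one carries 2394 bases that the shorter one lacks, 56.0% of its 4278 bases. The share of its reads that fell in this stretch was 34.0 ± 2.5% (SD, n = 3) in control and 31.7 ± 3.1% in DMM at 4 weeks, and 35.2 ± 0.58% and 34.4 ± 0.64% at 12 weeks. The groups overlapped at both times, so a shift between the variants was not detectable against the spread. The end of Prg4 overlaps the oppositely oriented gene Tpr by a short stretch, where reads without strand cannot be assigned to one of them.

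The transcription factor gene Erg was at 30.4, 8.49 and 4.11 CPM in control and at 7.10, 4.70 and 6.46 CPM in DMM at 4 weeks. A single control library, which also had the highest skeletal muscle marker sum of all 12 libraries (26025 CPM), stood far above the rest, and the part of muscle tissue in this value was not tested. Its log2 fold change was -1.23 (SE 0.65, edgeR adjusted p = 0.409) and shrank to -0.04 without that library. At 12 weeks Erg was at 5.50, 6.91 and 4.26 CPM in control and at 8.85, 7.67 and 9.43 CPM in DMM. Each DMM library lay above each control library, a log2 fold change of 0.65 (SE 0.23, unadjusted p = 0.0207, edgeR adjusted p = 0.271).

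Creb5, the other transcription factor gene, stood at 64.7, 50.5 and 23.7 CPM in control and at 54.8, 38.2 and 32.6 CPM in DMM at 4 weeks. At 12 weeks the values were 37.6, 48.7 and 16.3 CPM in control and 38.7, 63.3 and 36.5 CPM in DMM. The ranges of the 2 limbs overlapped at both times, with log2 fold changes of -0.14 (SE 0.36) and 0.44 (SE 0.39) and edgeR adjusted p of 0.871 and 0.578. The direction at 4 weeks turned positive without control library 1 (0.19) and without DMM library 3 (0.02).

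Among the matrix genes, Cilp (cartilage intermediate layer protein) was at 20566, 17336 and 7629 CPM in control and at 10176, 5609 and 4584 CPM in DMM at 4 weeks. Only DMM library 1 exceeded the lowest control library, and the log2 fold change was -1.15 (SE 0.50, unadjusted p = 0.0495, edgeR adjusted p = 0.371). At 12 weeks Cilp was at 11295, 18129 and 6387 CPM in control and at 10433, 17105 and 13396 CPM in DMM, a log2 fold change of 0.21 (SE 0.38, edgeR adjusted p = 0.808). Without control library 3 the 12-week value turned to -0.12.

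Its paralogue Cilp2 was far scarcer, at 563, 461 and 138 CPM in control and 325, 162 and 179 CPM in DMM at 4 weeks (log2 fold change -0.79, SE 0.50, edgeR adjusted p = 0.456). At 12 weeks it was at 122, 279 and 117 CPM in control and at 295, 422 and 217 CPM in DMM. Control library 2 alone reached into the DMM range, and the log2 fold change was 0.86 (SE 0.39, unadjusted p = 0.0573, edgeR adjusted p = 0.317). Without that library it was 1.39 with an adjusted p of 0.0474 by edgeR, and 3.14% of all genes were then called (492 of 15677).

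Thbs4, a thrombospondin of tendon and muscle matrix as well as cartilage, was at 321, 337 and 103 CPM in control and at 343, 208 and 325 CPM in DMM at 4 weeks. The log2 fold change was 0.21 (SE 0.43, edgeR adjusted p = 0.830), and it was -0.16 without control library 3. At 12 weeks Thbs4 was at 104, 136 and 137 CPM in control and at 234, 285 and 147 CPM in DMM. All DMM libraries lay above all control libraries, the lowest by a small margin, and the log2 fold change was 0.83 (SE 0.25, unadjusted p = 0.00964, edgeR adjusted p = 0.254). DESeq2 called Thbs4 at 12 weeks (adjusted p = 0.0442), the only one of the 9 genes, with 2.91% of all genes called by that test. The summed tendon, ligament and meniscus markers were also higher in the DMM libraries at 12 weeks (860 to 1730 against 243 to 507 CPM). Most of this sum was Fmod (mean 1372 against 333 CPM), and of these 5 markers DESeq2 called Fmod alone at 12 weeks. The part of these markers in the Thbs4 value was not tested.

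Abi3bp, whose product binds collagens in the matrix, was at 279, 315 and 124 CPM in control and at 351, 303 and 489 CPM in DMM at 4 weeks. Of the 9 genes only Abi3bp and Thbs4 had a positive log2 fold change at this time, for Abi3bp 0.67 (SE 0.36, edgeR adjusted p = 0.409). At 12 weeks Abi3bp was at 162, 151 and 82.5 CPM in control and at 177, 276 and 152 CPM in DMM, a log2 fold change of 0.63 (SE 0.30, edgeR adjusted p = 0.335). The lowest DMM library was just above the middle control library.

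Clu, which encodes the secreted chaperone clusterin, was at 10015, 7540 and 3705 CPM in control and at 4575, 3507 and 4483 CPM in DMM at 4 weeks (log2 fold change -0.75, SE 0.41, edgeR adjusted p = 0.413). At 12 weeks it was at 4370, 7278 and 2293 CPM in control and at 4500, 7379 and 5978 CPM in DMM (0.37, SE 0.40, edgeR adjusted p = 0.651). As for Prg4 and Cilp, control library 3 was the lowest of the control limb at both times.

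Gas1, the hedgehog co-receptor gene, had the lowest fold change of the 9 at 4 weeks, with 2215, 1404 and 654 CPM in control and 784, 498 and 392 CPM in DMM. DMM library 1 exceeded control library 3, and the log2 fold change was -1.34 (SE 0.47, unadjusted p = 0.0203, edgeR adjusted p = 0.335). At 12 weeks Gas1 was at 199, 612 and 143 CPM in control and at 661, 727 and 293 CPM in DMM, a log2 fold change of 0.84 (SE 0.62, edgeR adjusted p = 0.513). The control range at 12 weeks lay wholly below the control range at 4 weeks.

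Single libraries moved many of these values by more than 1.5 times. At 4 weeks, leaving out control library 1, the highest of the control libraries for 7 of the 9 genes, brought the log2 fold change to -0.40 for Prg4, -0.42 for Cilp2, -0.41 for Clu and -0.87 for Gas1. Cilp2 was at -1.19 without control library 3 or without DMM library 1, and Abi3bp was at 0.37 without control library 3. At 12 weeks, without control library 2, the log2 fold change was 0.98 for Prg4 (unadjusted p = 0.0176, edgeR adjusted p = 0.123), 0.85 for Clu (unadjusted p = 0.0397, edgeR adjusted p = 0.180), 1.72 for Gas1 (unadjusted p = 0.00423, edgeR adjusted p = 0.0702), 0.78 for Creb5 and 0.63 for Cilp, and Cilp2, at 1.39, then passed the test (edgeR adjusted p = 0.0474, with 3.14% of all genes called). Without control library 3 it was 0.097 for Prg4, 0.024 for Clu, 0.47 for Gas1, 0.084 for Creb5 and 0.36 for Abi3bp, and Cilp turned to -0.12. Without DMM library 2 it was 0.23 for Prg4, 0.19 for Clu, 0.16 for Creb5, 0.017 for Cilp and 0.34 for Abi3bp.

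Counted over the 9 genes, the ranges of control and DMM did not overlap for 0 genes at 4 weeks, against 20.9% of all genes, and for 2 genes at 12 weeks (Erg and Thbs4, both higher in DMM), against 18.4% of all genes. These 2 of 9 genes are close to what the share among all genes would give.

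**Figure D2:**
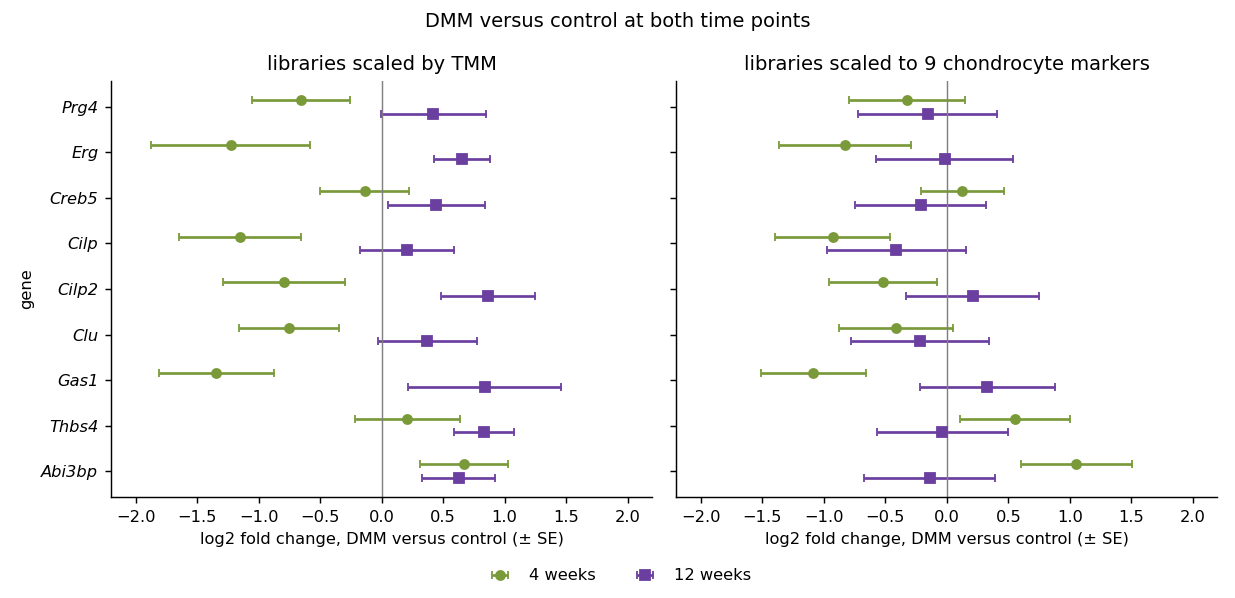
Log2 fold change of DMM against control (points, with the SE as bars) for the 9 genes at 4 weeks (green circles) and 12 weeks (violet squares), with libraries scaled by TMM (left) and to 9 chondrocyte markers (right). With TMM the 4-week values run from -1.34 to 0.67 and the 12-week values from 0.21 to 0.86. With the other scaling the 12-week values run from -0.41 to 0.33 and 7 of the 9 are negative. That scaling moves the median of all genes to -0.78 at 12 weeks, and each of the 9 lies above it.

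Whether the DMM effect itself differed between the times was tested as an interaction over the 12 libraries. The difference (12-week minus 4-week log2 fold change) was 2.17 for Gas1 (SE 0.81, unadjusted p = 0.0199), 1.87 for Erg (SE 0.76, unadjusted p = 0.0299), 1.65 for Cilp2 (SE 0.70, unadjusted p = 0.0360) and 1.07 for Prg4 (SE 0.60, unadjusted p = 0.102). None passed after adjustment by edgeR over 15957 genes, where 0% of all genes were called (1895 at an unadjusted p under 0.05, and 12 called by DESeq2), and Gas1, Erg and Cilp2 had an adjusted p of 0.416. For Abi3bp the estimate was -0.06 (SE 0.51). The Erg value was 0.67 (unadjusted p = 0.146, edgeR adjusted p = 0.709) without control library 1 of 4 weeks, and the Prg4 value was 1.64 without control library 2 of 12 weeks. Scaled to the 9 chondrocyte markers, where the median of all genes was -1.10, the estimates were 1.26 for Gas1 (SE 0.62), 0.62 for Erg (SE 0.71), 0.58 for Cilp2 (SE 0.62) and 0.08 for Prg4 (SE 0.59). On that scale Abi3bp was at -1.28 (SE 0.64, unadjusted p = 0.0531, edgeR adjusted p = 0.182), close to the median of all genes. Thbs4 turned to -0.75 (SE 0.66) and Creb5 to -0.43 (SE 0.57), both above that median.

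The scaling decided the direction at 12 weeks. When libraries were scaled to the 9 chondrocyte markers, an alternative chosen after seeing the data, the median log2 fold change of all genes moved to 0.24 at 4 weeks and -0.78 at 12 weeks. On that scale the 9 genes had a median of -0.41 at 4 weeks and -0.14 at 12 weeks, and the 12-week values of 7 genes turned negative, with Prg4 at -0.16 (SE 0.56), Cilp at -0.41 (SE 0.57) and Thbs4 at -0.04 (SE 0.53). At 12 weeks only Cilp2 (0.21) and Gas1 (0.33) remained positive, and relative to the shift of all genes each of the 9 was still higher. At 4 weeks Gas1 (-1.09, SE 0.43) and Cilp (-0.93, SE 0.47) kept their direction and Abi3bp reached 1.05 (SE 0.45), while Creb5 turned to 0.13, and no gene of the 9 was called by edgeR at either time.

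The limb in which Prg4 varied more depended on the scale. In plain CPM its coefficient of variation was 35.3% in control and 19.6% in DMM at 4 weeks, and 58.2 and 26.7% at 12 weeks. On the log2 scale adjusted to these markers it was 13.80, 13.79 and 13.50 in control and 13.16, 12.84 and 13.94 in DMM at 4 weeks. At 12 weeks it was 13.96, 14.17 and 14.05 in control and 13.30, 13.90 and 14.14 in DMM. The SD over the 3 control libraries was 0.17 and 0.11 at the 2 times, and in the DMM limb it was 0.57 and 0.44, the reverse of the order in plain CPM.

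Cilp, on the same adjusted log2 scale, was at 13.89, 13.96 and 13.25 in control and at 13.14, 12.49 and 12.79 in DMM at 4 weeks, with every DMM library below every control library. It was at 13.93, 13.81 and 13.82 in control and at 12.92, 13.44 and 13.64 in DMM at 12 weeks, where the ranges were again apart. Gas1 at 4 weeks was at 10.68, 10.34 and 9.71 in control and 9.44, 8.99 and 9.25 in DMM, also without overlap, and Abi3bp was at 7.69, 8.18 and 7.32 in control and 8.28, 8.28 and 9.56 in DMM, with the DMM libraries higher. On this scale 3 of the 9 genes had ranges apart at 4 weeks (Cilp and Gas1 lower, Abi3bp higher), against 13.2% of all genes, and 1 gene at 12 weeks (Cilp, lower), against 9.08% of all genes. Of the 1449 genes apart at 12 weeks 1392 were lower and 57 higher in DMM, since this scaling moves the median of all genes down, and the Cilp value goes in the direction of that shift.

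**Figure D3:**
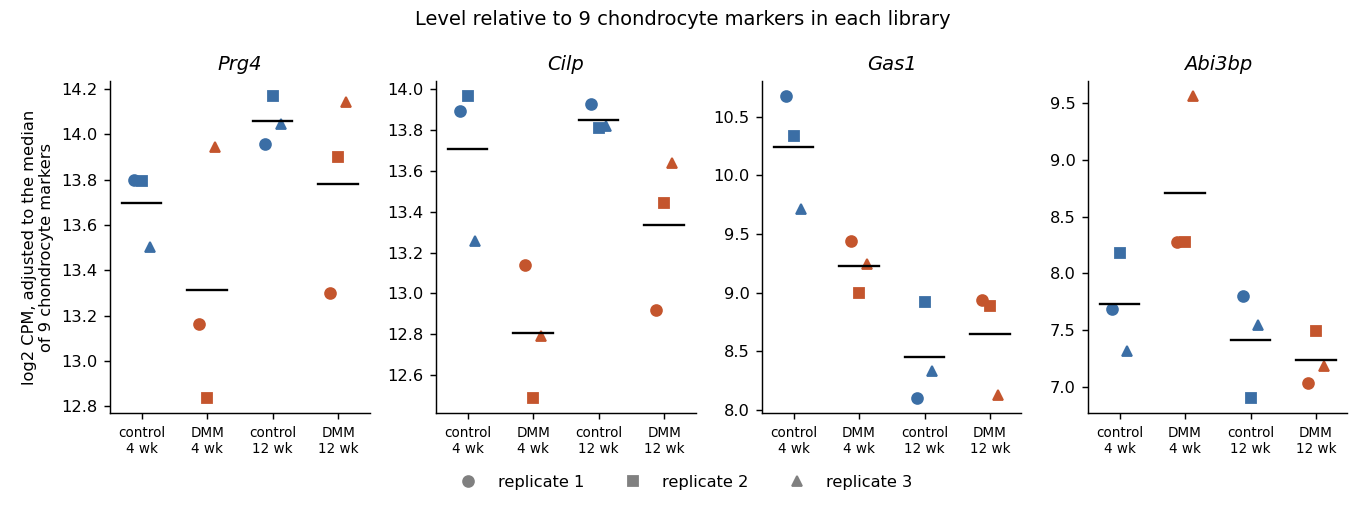
Log2 CPM adjusted to the median of 9 chondrocyte markers for Prg4, Cilp, Gas1 and Abi3bp in each library (points, shaped by replicate number; bars are the mean of 3; blue control, orange DMM). The 3 control libraries of Cilp lie above the 3 DMM libraries at both times (at 12 weeks 1392 of the 1449 genes with ranges apart were lower in DMM on this scale), and Prg4 spreads more in DMM (12.84 to 13.94 at 4 weeks) than in control (13.50 to 13.80), the reverse of its order in plain CPM.

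Between the times, the DMM limb changed most clearly in Prg4 and Abi3bp. Prg4 was higher at 12 than at 4 weeks by 1.01 on the log2 scale (SE 0.28, edgeR adjusted p = 0.0332), from 7138 to 10348 CPM up to 13583 to 23544 CPM without overlap. Abi3bp was lower by a log2 fold change of -0.92 (SE 0.26, edgeR adjusted p = 0.0354), from 303 to 489 CPM down to 152 to 276 CPM without overlap. Cilp ranged from 4584 to 10176 CPM at 4 weeks and from 10433 to 17105 CPM at 12 weeks, with a log2 fold change of 0.99 that missed the threshold (SE 0.34, edgeR adjusted p = 0.0646). These 2 calls among 9 genes stand beside 21.3% of all genes called in this comparison (3280 of 15377), and the 4 genes with ranges apart (Prg4, Erg and Cilp higher, Abi3bp lower) beside 41.7% of all genes. Marker sums also moved between the same DMM libraries. From 4 to 12 weeks macrophage markers went from 184 to 458 CPM down to 97.3 to 134 CPM. Endothelium markers went from 100 to 125 down to 52.7 to 71.7 CPM, and adipocyte markers from 89.6 to 118 down to 45.7 to 65.6 CPM. Osteoblast markers went from 3802 to 6217 up to 7561 to 9076 CPM. Their part in the values over time was not tested.

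The Prg4 and Abi3bp calls were not firm. With each DMM library left out in turn, the adjusted p of edgeR for Prg4 was 0.0260 to 0.136 and for Abi3bp 0.0319 to 0.112, and each call was lost when DMM library 2 or 3 of 4 weeks or library 3 of 12 weeks was absent. Cilp2 passed the test only without DMM library 1 of 4 weeks (0.88, edgeR adjusted p = 0.0336), where 33.0% of all genes were called (5193 of 15743). The Prg4 call was also lost without DMM library 2 of 12 weeks (adjusted p = 0.0875) and the Abi3bp call without DMM library 1 of 12 weeks (adjusted p = 0.0952). In 1 fit of all 12 libraries neither was called (adjusted p = 0.106 for Prg4 and 0.0909 for Abi3bp by edgeR). DESeq2 called Prg4, Cilp and Abi3bp (22.9% of all genes called). Scaled to the chondrocyte markers, where the median of all genes was -0.43, only Abi3bp was called (-1.48, edgeR adjusted p = 0.00761, 14.8% of all genes called), and Prg4 was at 0.56 (SE 0.43, edgeR adjusted p = 0.361). By ranges on that scale, Gas1, Thbs4 and Abi3bp were lower at 12 weeks and Prg4, Erg and Cilp overlapped, against 35.4% of all genes apart (4698 of 5645 lower).

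In the control limb no member was called between the times, with 0% of all genes called by edgeR (0 of 15601, 3268 at an unadjusted p under 0.05). Gas1 showed the largest change of the 9, a log2 fold change of -2.18 (SE 0.68, unadjusted p = 0.0156, edgeR adjusted p = 0.152), and it was the only one with ranges apart, against 26.9% of all genes. DESeq2 called Gas1 (adjusted p = 0.00539), with 9.87% of all genes called. In the same control libraries the neutrophil and marrow markers summed to 6927, 11921 and 20887 CPM at 4 weeks and to 33002, 20522 and 28338 CPM at 12 weeks, and the skeletal muscle markers to 7185 to 26025 and 108 to 18961 CPM. Their part in the values over time was not tested. On the scale of the chondrocyte markers Gas1 was again apart and lower, and Prg4 was apart and higher at 12 weeks (13.96 to 14.17 against 13.50 to 13.80), against 6.95% of all genes apart. With TMM, the Erg value in the control limb was -0.22 without control library 1 of 4 weeks. Thbs4 had a log2 fold change of -1.03 (SE 0.43, unadjusted p = 0.0481) and Prg4 one of -0.06 (SE 0.54, edgeR adjusted p = 0.956). Without control library 3 of 4 weeks, edgeR called Cilp2 (-1.58), Gas1 (-2.52), Thbs4 (-1.40) and Abi3bp (-1.18), with adjusted p of 0.0444, 0.0443, 0.0132 and 0.0429, while 2755 of all genes were then called. The comparisons over time use the same libraries as the comparisons of the limbs.

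Other genes known to act on lubricin or on surface zone cells were read from lists. Of 18 regulators (TGF-beta ligands, receptors and SMADs, FOXO, NFAT, EGFR and Hippo pathway genes among them), none was called by edgeR at either time. At 4 weeks 8 had a positive log2 fold change (median -0.02), from Egfr, the epidermal growth factor receptor gene, at 0.90 (SE 0.32, edgeR adjusted p = 0.336) to the growth factor gene Tgfb1 at -0.64 (SE 0.27, edgeR adjusted p = 0.371). At 12 weeks 15 were positive (median 0.36), from Gdf5, a joint-forming growth factor gene, at 1.13 (SE 0.35, edgeR adjusted p = 0.256) to the receptor gene Tgfbr1 at -0.29 (SE 0.21, edgeR adjusted p = 0.498). DESeq2 called 2 of the 18 at 12 weeks, Gdf5 (adjusted p = 0.0482) and Tgfb2 (adjusted p = 0.0388), both higher in DMM, with 2.91% of all genes called by that test.

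The partners of lubricin and the genes of hyaluronan synthesis, its co-lubricant, were tested for 9 of 10 genes, with none called by edgeR. At 4 weeks 7 were positive (median 0.46), from the innate immune receptor gene Tlr4 at 0.69 (SE 0.26) to Comp, whose product binds lubricin in the matrix, at -0.58 (SE 0.48). At 12 weeks 7 were positive (median 0.52), from the hyaluronan synthase gene Has1 at 1.84 (SE 0.50, edgeR adjusted p = 0.254) to Tlr4 at -0.23 (SE 0.16). DESeq2 called Has1, Fn1 and Comp at 12 weeks, with mean levels of 25.1 ± 5.9 against 88.9 ± 48.7 CPM, 1869 ± 160 against 3653 ± 784 CPM, and 1979 ± 635 against 3938 ± 863 CPM (control against DMM, SD, n = 3). The share of all genes called by that test was 2.91%. Comp, Col2a1 and Hapln1 of this list are also among the 9 chondrocyte markers, whose sum was higher in every DMM library at 12 weeks, and the part of this in the Comp value was not tested.

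For contrast with the deeper cartilage, 12 matrix genes of the middle and deep zones had 2 positive values at 4 weeks (median -0.80, from Epyc at 0.80 to Matn3 at -2.99, SE 1.09, with 13.5 ± 19.3 CPM in control and 1.74 ± 0.74 CPM in DMM) and 12 at 12 weeks (median 0.41, from Col9a2 at 0.78 to Epyc at 0.02). The 8 genes of calcified cartilage and hypertrophy had 6 positive values at 4 weeks (median 0.37, from Ibsp at 0.96 to Ihh at -0.92) and 8 at 12 weeks (median 0.92, from Panx3 at 1.44 to Mmp13 at 0.08). None of these genes was called by edgeR at either time. DESeq2 called none of the deep zone genes at either time (it gave Matn3 no adjusted p at 4 weeks), and of the calcified zone genes it called Ibsp, a bone sialoprotein gene, at 4 weeks (adjusted p = 0.0319, with 2.65% of all genes called) and Ibsp and the alkaline phosphatase gene Alpl at 12 weeks (adjusted p = 0.00126 and 0.00498, with 2.91% of all genes called), all higher in DMM. The median of the deep zone genes had the sign of that of the 9 genes of this report at both times, 5 of the 12 are also among the chondrocyte markers used for scaling, and a difference between the lists was not tested.

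By the root mean square difference of centred log2 CPM over the 12 libraries, the profile of Prg4 was nearest to Slc1a1 (0.13), Tesc (0.18), Acsf2 (0.19), Junb (0.19) and Hoxa5 (0.19), against a median of 0.69 over all genes. The nearest profile was 5730409E04Rik for Erg (0.30), Tuft1 for Creb5 (0.16), Stk32b for Cilp (0.13), Tbx4 for Cilp2 (0.20) and Clu was nearest to Cytl1 (0.15). For Gas1 it was P3h2 (0.26), for Thbs4 Mustn1 (0.20) and for Abi3bp Glrb (0.18). These are descriptions over 12 libraries, which differ in their marker sums as given above.

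The DNA of these genes was read at cytosines near MspI sites (CCGG), which the restriction digest selects. Coverage was very uneven. Prg4 (chr1:150449412-150466221, minus strand) had 2 cytosines covered in all 12 oxBS libraries, Abi3bp (chr16:56477801-56690135, plus strand) 12, Clu (chr14:65968483-65981548, plus strand) 42, Cilp (chr9:65265180-65280614, plus strand) 47 and Thbs4 (chr13:92751586-92794818, minus strand) 49. Erg (chr16:95359169-95586600, minus strand) had 96, Creb5 (chr6:53287226-53700364, plus strand) 177, Gas1 (chr13:60174405-60177535, minus strand, a gene of 1 exon) 181 and Cilp2 (chr8:69880366-69887392, minus strand) 189. Coordinates are those of the mouse build GRCm38, and in Cilp2 65 of the cytosines also lay in a neighbouring or overlapping gene. The median coverage of an oxBS library was 22 to 102 reads, and the mean 5mC over the cytosines shared by all was 27.4 to 29.6%.

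Prg4 could therefore be described at single positions only. In its coding sequence the cytosine at chr1:150454146-150454146 was at 78.8, 65.5 and 52.0% 5mC in control and 67.9, 66.7 and 62.5% in DMM at 4 weeks, and at 68.0, 53.8 and 72.7% in control and 60.0, 86.7 and 57.7% in DMM at 12 weeks. The groups overlapped at both times. The other cytosine lay beyond the gene end, inside Tpr, at 81.5 to 93.2% in all 12 libraries. No cytosine of the Prg4 promoter was covered in all 12 libraries.

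Where promoters and first exons were covered, their 5mC was low. Gas1 held 127 covered cytosines in its single exon with a mean of 0.61 to 1.23% 5mC per library, and its promoter (1000 bases before to 500 after the start) had 49 at 0.37 to 1.01%. The promoter means were 1.09 to 2.82% for Clu (28 cytosines), 2.48 to 5.76% for Thbs4 (25) and 3.81 to 5.95% for Cilp2 (20). With at least 20 reads per cytosine the Cilp2 promoter was higher, at 5.69 to 9.18% (10 cytosines, with a 12-week control mean of 8.68 against 5.53%), and the Thbs4 promoter lower, at 0.22 to 2.91% (20 cytosines, 1.93 against 4.66%). Gene bodies were high in Cilp (70.2 to 81.1%, 47 cytosines), Clu (68.0 to 76.6%, 14) and Thbs4 (63.7 to 72.1%, 19) and intermediate in Erg (31.0 to 38.8%, 96), Creb5 (24 to 33.8%, 150) and Cilp2 (21.4 to 28.2%, 151). The Creb5 body also depended on coverage, with group means of 16.4 to 19.9% over the 96 cytosines with at least 20 reads.

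The start regions of Creb5 (its upstream start), Gas1 and Thbs4 are shown because their covered cytosines carry these low values. Each line is 300 bases of RefSeq sequence from build GRCm38.p6, 5′ to 3′ on the gene's strand, from 250 bases before the start to 50 after it, with the CpGs covered at both times in capitals.
Creb5 upstream start, chr6:53287053-53287352, plus strand: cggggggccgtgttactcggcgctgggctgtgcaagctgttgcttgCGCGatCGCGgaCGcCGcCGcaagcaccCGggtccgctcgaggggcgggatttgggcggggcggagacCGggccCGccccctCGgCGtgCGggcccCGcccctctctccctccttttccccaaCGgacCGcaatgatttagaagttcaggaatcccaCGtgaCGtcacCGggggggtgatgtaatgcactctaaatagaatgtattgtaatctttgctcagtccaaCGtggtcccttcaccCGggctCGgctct
Gas1, chr13:60177486-60177785, minus strand: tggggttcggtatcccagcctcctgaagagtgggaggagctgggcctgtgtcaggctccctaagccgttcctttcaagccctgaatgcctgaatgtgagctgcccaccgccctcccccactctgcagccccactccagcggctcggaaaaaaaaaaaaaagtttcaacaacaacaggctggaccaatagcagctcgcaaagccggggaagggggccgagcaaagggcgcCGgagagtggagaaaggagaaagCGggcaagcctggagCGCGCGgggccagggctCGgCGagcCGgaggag
Thbs4, chr13:92794769-92795068, minus strand: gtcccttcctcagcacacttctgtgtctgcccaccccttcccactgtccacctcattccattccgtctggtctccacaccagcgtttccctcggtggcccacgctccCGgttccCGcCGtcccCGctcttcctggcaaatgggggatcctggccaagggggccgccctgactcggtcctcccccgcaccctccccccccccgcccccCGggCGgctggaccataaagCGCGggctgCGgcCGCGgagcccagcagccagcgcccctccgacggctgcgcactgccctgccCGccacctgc
Over the covered cytosines of these stretches the mean 5mC of a library was 0.0758 to 0.842% in Creb5 (24 cytosines), 0.328 to 1.29% in Gas1 (13) and 0.98 to 7.37% in Thbs4 (12). They hold 31, 17 and 24 CpGs, against a median of 7 in 32851 RefSeq promoters of the same length. The motif TGACGTCA, the full cyclic AMP response element that CREB family factors are known to bind, was searched and reads the same on both strands. Of the promoters of 6 of the 9 genes in the RefSeq table it was found at the Creb5 upstream start only, and 1.79% of all promoters held it. Prg4, Clu and Abi3bp had no entry among these promoters and were not searched. The transcript of Creb5 that was counted starts further downstream, at a promoter with 4 CpGs and no covered cytosine.

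At 4 weeks no cytosine in the windows of the 9 genes passed the thresholds for a differentially methylated cytosine (q below 0.05 and a difference of at least 25 percentage points in pooled reads), of 953 tested, and 0.000554% of all cytosines did (8 of 1445146). At 12 weeks 7 of 844 did, against 0.227% of all cytosines (2892 of 1273156). All 7 were lower in DMM, as were 2548 of the 2892, and the ranges of control and DMM libraries were apart at each. They lay in Erg (3), Creb5 (3) and beside Abi3bp (1), none in an exon, promoter or another gene, and the calls come from 4 stretches, since the 3 in Creb5 and 2 of those in Erg lie close together on 1 strand beside a single CCGG and are not independent. The surrounding sequences of the plus strand of GRCm38 are shown because these positions carry the only 5mC calls of the 9 genes, with the called CpGs in capitals (the called cytosine is on the minus strand in Creb5 and at the first Erg position).
Abi3bp, before the gene, chr16:56475744-56475824: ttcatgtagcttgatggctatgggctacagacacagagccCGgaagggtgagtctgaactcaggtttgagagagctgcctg
Creb5, intron, chr6:53530895-53530990: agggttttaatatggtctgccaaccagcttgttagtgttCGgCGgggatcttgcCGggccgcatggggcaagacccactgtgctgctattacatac
Erg, intron, chr16:95373049-95373129: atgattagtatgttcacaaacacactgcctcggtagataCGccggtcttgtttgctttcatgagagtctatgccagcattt
Erg, intron, chr16:95415429-95415547: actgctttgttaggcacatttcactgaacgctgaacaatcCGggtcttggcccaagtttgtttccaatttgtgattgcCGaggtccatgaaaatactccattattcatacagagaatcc
Each stretch holds 1 CCGG and no repeat-masked base. The counts of reads behind a called cytosine ran from 15 to 109 per library at 12 weeks.

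Beside Abi3bp, at position -2062 from the start of the counted transcript, the cytosine at chr16:56475784-56475784 was at 62.7, 60.0 and 60.4% 5mC in control and at 34.9, 32.7 and 32.0% in DMM at 12 weeks. The difference in pooled reads was -28.1 points (q = 0.000163, likelihood ratio test of a logistic model over 1273156 cytosines). At 4 weeks it was at 44.6, 28.3 and 31.5% in control and 30.6, 18.2 and 23.9% in DMM (-5.56 points, q = 0.716), with overlapping groups.

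In Erg, 2 neighbouring cytosines of an intron were called. The one at chr16:95415507-95415507 was at 46.9, 51.2 and 52.8% in control and 12.2, 34.1 and 21.0% in DMM at 12 weeks (-30.0 points, q = 1.98e-05), and at 32.1, 23.3 and 22.7% against 25.2, 6.25 and 18.9% at 4 weeks. Its neighbour at chr16:95415469-95415469 was at 43.2, 41.9 and 51.4% in control and 15.6, 33.3 and 14.8% in DMM at 12 weeks (-25.8 points, q = 0.000325). At both, DMM library 2 was the highest of its limb. A further intronic cytosine at chr16:95373089-95373089 was at 76.1, 75.0 and 84.0% against 52.2, 53.3 and 50% at 12 weeks (-26.4 points, q = 0.0306) and at 51.9, 53.8 and 52.9% against 53.8, 33.3 and 51.7% at 4 weeks.

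In Creb5, 3 cytosines close together in an intron of the longer transcript were called. The first lies at position -42439 from the start of the counted transcript. This one, at chr6:53530935-53530935, was at 56.1, 40 and 91.7% in control and 34.0, 22.2 and 26.9% in DMM (-35.3 points, q = 0.00116). Those at 53530938 and 53530950 differed by -26.4 points (q = 0.0344) and -30.1 points (q = 0.00851). Control library 3 was the highest at all 3 positions (83.3 to 91.7%). None of the 3 was called without that library, or when at least 20 reads were required. At 4 weeks the differences at the 3 positions were -3.20, -2.16 and 7.25 points, with overlapping groups.

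Across the 7 positions, control means at 12 weeks were higher than at 4 weeks (for example 26.1 ± 5.3 and 50.3 ± 3.0% at the Erg cytosine 95415507, and 34.8 ± 8.7 and 61.0 ± 1.4% beside Abi3bp; SD, n = 3), while the DMM means moved less (16.8 ± 9.6 to 22.5 ± 11% and 24.3 ± 6.2 to 33.2 ± 1.5%). This is a description of positions chosen for their 12-week difference between limbs. None of the 7 was called when the test allowed for overdispersion between the libraries of a limb, where 0 of all 1273156 cytosines were called at 12 weeks (25124 at an unadjusted p under 0.05). Leaving out 1 library at a time left between 2 and 10 calls in the windows, with the fewest without control library 3, and leaving out both 12-week libraries whose titles share a different style left 3. The share of all cytosines called was 0.129 to 0.409% without 1 library and 0.102% without both of those.

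**Figure D4:**
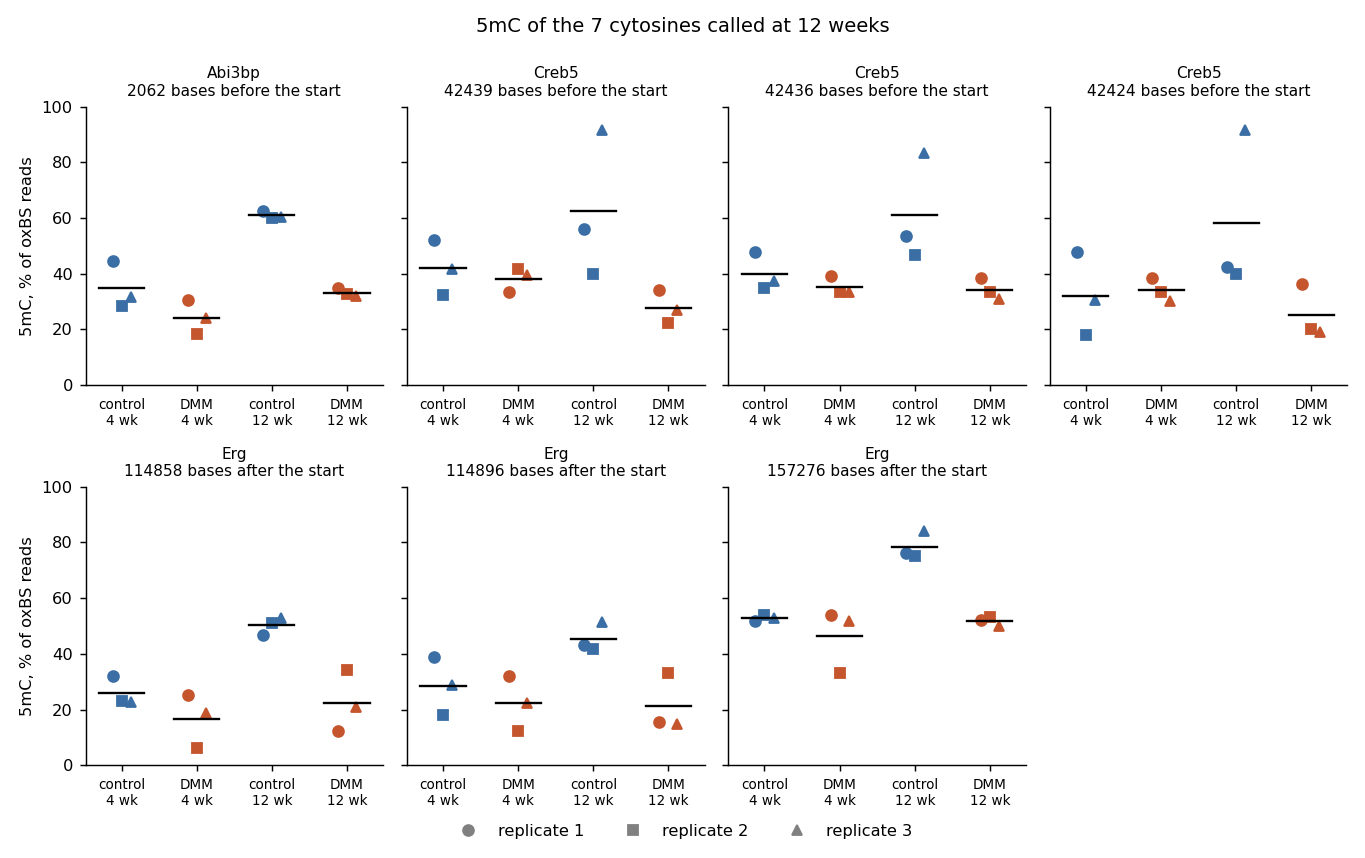
5mC, as a percent of oxBS reads, in each library at the 7 cytosines called at 12 weeks (points, shaped by replicate number; bars are the mean of 3; blue control, orange DMM), with the distance from the start of the counted transcript above each panel. At 12 weeks the control points lie above the DMM points in every panel, and at 4 weeks the 2 limbs overlap.

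Apart from these positions no cytosine was called with all libraries at the main thresholds. With a difference of at least 20 points, 9 were called in the windows at 12 weeks (0.674% of all cytosines). With the strands merged 8 were called there (0.220% of all), and neither setting gave a call in the windows at 4 weeks. In a coding exon of Cilp2 the cytosine at chr8:69882933-69882933 was at 15.3, 21.8 and 14.0% in control and 33.3, 52.4 and 38.0% in DMM at 4 weeks (17.4 points in pooled reads, q = 0.0525), without overlap, and the limbs overlapped there at 12 weeks (8.39 points). At 12 weeks another Cilp2 exon cytosine, at chr8:69883082-69883082, was at 25, 28.6 and 33.3% in control and 46.8, 36.7 and 58.5% in DMM (19.9 points, q = 0.0550), and there the limbs overlapped at 4 weeks (-4.42 points). In Erg the 4-week maximum was the intronic cytosine at chr16:95368085-95368085, at 66.7, 57.0 and 80.5% in control and 45.0, 42.1 and 44.8% in DMM (-20.1 points, q = 0.210), and it was apart in the same direction at 12 weeks (-16.4 points, q = 0.196). In Creb5 it was -17.4 points at a coding exon (q = 0.493) and in Abi3bp 6.88 points (q = 0.649). For Cilp the largest differences were -14.5 points at 4 weeks (q = 0.483) and -16.6 points at 12 weeks (q = 0.117), for Thbs4 -9.93 and -16.8 points (q = 0.567 and 0.216), and for Clu -13.9 and -9.76 points (q = 0.623 and 0.513). Some of these values hang on 1 library. At 4 weeks, without control library 2, the Erg cytosine 95368085 was called (-29.4 points, q = 0.00516), as were an intronic cytosine of Abi3bp at 56512872 (-27.7 points, q = 0.00271, against -5.62 points with all libraries) and an exonic one of Cilp2 at 69882215 (26.0 points, q = 0.0383, against 13.4 points). In that run 0.210% of all cytosines were called (3039 of 1445146). Without DMM library 1 of 4 weeks, an intronic cytosine of Thbs4 at 92781543 was called (-26.2 points, q = 0.000330, against -9.81 points), with 0.0136% of all cytosines called (196 of 1445146). At 12 weeks, without control library 2, calls in a coding exon of Creb5 went both ways (-36.1 points at 53681205 and 25.8 points at 53681245), with 0.409% of all cytosines called (5720 of 1398866). In Gas1 and Prg4 the largest differences were 7.03 and 6.22, and -3.45 and -1.73 points. The ranges of the 2 limbs were apart at 69 of the 953 cytosines at 4 weeks (34 higher and 35 lower in DMM), against 6.14% of all cytosines, and at 90 of the 844 at 12 weeks (34 higher, 56 lower), against 8.11%.

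Averages by window are given as a description, without a test. At 4 weeks the ranges were apart in 3 of 21 windows: the Cilp2 body was higher in DMM (24.2 ± 1.9 against 28.0 ± 0.29%, SD, n = 3), as was the Cilp2 promoter (3.86 ± 0.044 against 5.09 ± 0.83%), and the Gas1 body was lower (1.12 ± 0.11 against 0.82 ± 0.10%). At 12 weeks they were apart in 7 windows, all lower in DMM. The mean over all shared cytosines was itself lower in every DMM library at that time (28.0 to 28.7% against 29.0 to 29.6%), so the direction is not particular to these windows, and the share of windows apart over all genes was not computed. The 3 cytosines before Abi3bp went from 57.9 ± 5.8% in control to 38.3 ± 2.4% in DMM, its body from 75.7 ± 5.3 to 67.0 ± 3.0%, and the 5 cytosines after Cilp2 from 43.4 ± 3.5 to 32.0 ± 2.7%. The Creb5 body went from 32.4 ± 1.2 to 29.1 ± 1.1%, the Thbs4 promoter from 4.66 ± 0.97 to 2.92 ± 0.68%, the Cilp2 promoter from 5.53 ± 0.25 to 4.37 ± 0.16% and the Gas1 body from 1.02 ± 0.18 to 0.72 ± 0.11%. Some separations did not hold under other settings. The limbs overlapped in the Cilp2 promoter with reads pooled over the window at both times, in the Cilp2 promoter and the Gas1 body at 4 weeks with at least 20 reads per cytosine, in the Gas1 body at 4 weeks with reads pooled, and in the Thbs4 promoter at 12 weeks with at least 20 reads.

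**Figure D5:**
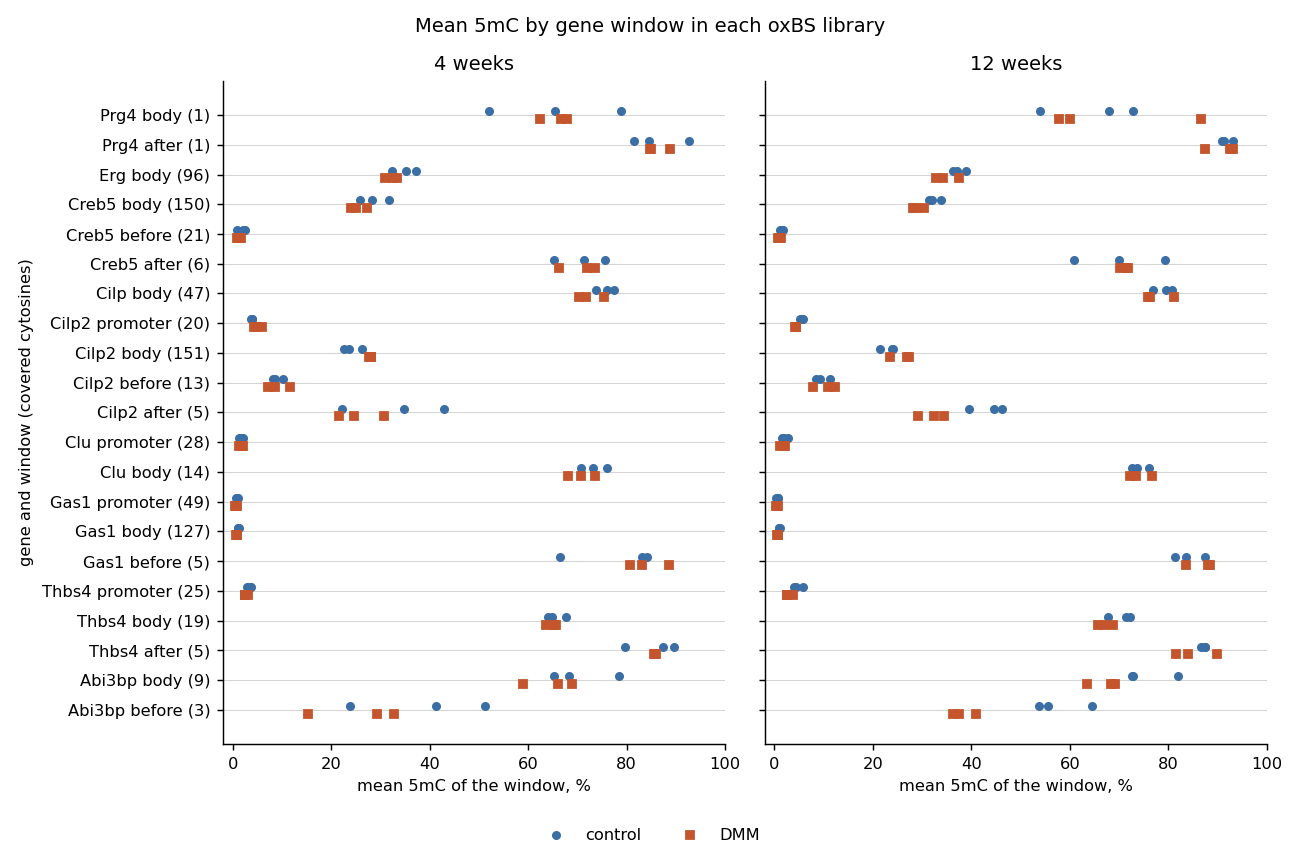
Mean 5mC of each gene window in each oxBS library at 4 weeks (left) and 12 weeks (right), with the number of cytosines covered in all 12 libraries in brackets (blue circles control, orange squares DMM; x axis in percent). Promoters lie under 6%, the bodies of Cilp, Clu and Thbs4 between 63.7 and 81.1%, and the window before Abi3bp shows the widest gap between the limbs at 12 weeks (57.9 against 38.3% by the means). In that window BS minus oxBS was -28.5% in control library 2 of 12 weeks.

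5hmC was taken as BS minus oxBS at the same cytosines, so that a lower oxBS value raises it by construction. In the gene bodies with the most covered cytosines it was 9.74 ± 1.10% in control and 12.6 ± 2.2% in DMM for Cilp at 4 weeks (SD, n = 3) and 6.26 ± 1.70 and 5.85 ± 4.10% at 12 weeks. Erg was at 6.83 ± 2.64 and 9.22 ± 1.46% at 4 weeks and at 5.68 ± 1.53 and 7.64 ± 1.25% at 12 weeks, and Creb5 at 6.47 ± 1.40 and 7.00 ± 0.15% and at 4.53 ± 1.14 and 5.31 ± 1.0%. For Cilp2 the body values were 7.46 ± 1.51 and 8.48 ± 1.51%, then 6.24 ± 1.06 and 5.67 ± 1.0%. The 4 group means of the Gas1 body lay between -0.15 and 0.12%. The limbs overlapped in all gene bodies at 4 weeks, but at that time the Thbs4 promoter was apart and higher in DMM (-0.23 to 0.41% in control and 0.63 to 1.27% in DMM) and the Clu promoter apart and lower (0.79 to 1.54 and -0.93 to 0.76%). At 12 weeks they were apart in the bodies of Abi3bp (9.13 ± 3.69% in control and 15.2 ± 2.8% in DMM, 7 cytosines) and Thbs4 (2.10 ± 2.32 and 7.04 ± 4.03%, 19 cytosines), where the oxBS mean was lower in DMM. The BS file of DMM library 1 of 12 weeks is named for another replicate, so its match with the oxBS library is not certain. The share of windows with 5hmC ranges apart over all genes was not computed. In the 3 cytosines before Abi3bp the 12-week values were -2.67, -28.5 and 5.73% in control and -2.47, 5.75 and 5.02% in DMM. In control library 2 BS thus lay far below oxBS, which 5hmC cannot produce. Whether the limbs were apart there in BS alone was not tested.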

How the data were processed

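RNA-seq, oxBS and BS libraries of pooled cartilage were read as the authors deposited them. For RNA, FLEXBAR trimming and STAR alignment to mm10 preceded counting, and the authors deposited raw counts per RefSeq transcript from featureCounts, without strand, so that reads shared by transcripts count in each. The labels name a poly(A) kit and the methods a SMART-Seq v4 kit. For methylation the deposited files give a percent of methylated reads and the read coverage per cytosine, for cytosines with at least 10 reads, after MspI digestion, CUTADAPT trimming and an in-house calling pipeline on mm10 (the submitters' processing notes list Bismark and CASAVA 2.17).

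Of 30048 transcript rows, 29476 were named from RefSeq, 17 from the study's transcript table and 555 not at all. One row per gene was kept. edgeR 4.0.16 in R 4.3.3 (TMM, filterByExpr, robust quasi-likelihood test) was fitted within each week on 6 libraries, and the interaction on 12, with Benjamini-Hochberg adjustment over all genes (threshold 0.05). CPM is relative to the TMM-scaled total, and log2 CPM used a prior count of 2. Methylated and unmethylated oxBS reads, recovered from percent and coverage, were compared per cytosine between the 2 limbs in logistic models with a likelihood ratio test, with at least 10 reads in all 6 libraries, and a call needed q below 0.05 and 25 points. Reads without molecular identifiers are not independent molecules. Tests were checked on simulated data. Alternatives included DESeq2 1.42.0, other scalings, filters and thresholds, a replicate block and leaving out each library.

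Named were the 9 genes, the extremes of each list, their nearest profiles and the called and most different cytosines. The genes and lists were chosen with earlier results of these data known. Replicate numbers were not used to pair the libraries, except in the replicate block among the alternatives. The BS library of DMM library 1 of 12 weeks has a file named for another replicate than its title, and the title was followed.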

Additional observations from a re-analysis of the deposited data

How the results depend on the processing

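None of the 9 genes was called between the limbs at 4 weeks under any alternative run, which does not show that they did not differ, while counts over all genes moved widely. With DESeq2, 516 genes were called at 4 weeks, 557 at 12 weeks (1 of the 9), 12 for the difference between weeks and 1910 between weeks in the control limb (1 of the 9). With all 12 libraries in 1 fit, 2 genes were called at 4 weeks, 919 in the control limb, and 0 of the 9 in the DMM limb. Scaling to chondrocyte markers gave 107, 0 and 83 genes (4 weeks, 12 weeks, control limb) and 1 of the 9 in the DMM limb. Every transcript row gave 16 rows at 4 weeks and 4980 in the DMM limb, median-of-ratios factors gave 2 at 4 weeks, and no filter gave 7, 2 and 42 (4 weeks, 12 weeks, control limb). The cause was not tested.

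Scaling to chondrocyte markers reversed Creb5 at 4 weeks (0.13), Prg4 (-0.16), Erg (-0.019), Creb5 (-0.21), Cilp (-0.41), Clu (-0.22), Thbs4 (-0.037) and Abi3bp (-0.14) at 12 weeks, the difference between weeks of Creb5 (-0.43) and Thbs4 (-0.75), Prg4 (0.31) and Cilp (0.058) in the control limb, and Creb5 in the DMM limb (-0.30). In the fit of 12, Gas1 in the DMM limb was at 0.0066.

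Leaving out 1 library at a time, signs turned within -0.45 to 0.19 for Creb5 and -0.16 to 0.46 for Thbs4 at 4 weeks, -0.12 to 0.63 for Cilp at 12 weeks, -0.35 to 0.26 for the difference between weeks of Abi3bp (positive also at 0.14, 0.13, 0.051, 0.029 and 0.11), -0.65 to 0.24 for Prg4 in the control limb (positive also at 0.16 and 0.063), and -0.15 to 0.39 for Creb5 (negative also at -0.037) and -0.22 to 0.35 for Gas1 (positive also at 0.27) in the DMM limb. Genes called ranged from 0 to 46 at 4 weeks, 0 to 492 at 12 weeks, 0 to 2 for the difference, 0 to 2755 in the control limb and 915 to 5193 in the DMM limb (1215, 1889, 1573 and 1442 in between). Of the 9, 0 to 1 were called at 12 weeks and 0 to 4 in each limb over time. Without DMM library 1 of 4 weeks, Cilp (adjusted p = 0.00785) and Cilp2 (0.0336) were called beside Prg4 and Abi3bp in the DMM limb by edgeR. In that run 33.0% of all genes were called (5193 of 15743).

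The replicate block gave 253 genes at 4 weeks, 344 at 12 weeks with 1 of the 9 (Cilp2, edgeR adjusted p = 0.0459), and 53 cytosines at 4 weeks. Libraries of the same number correlated at 0.36, -0.32 and 0.08 at 4 weeks and -0.54, 0.27 and -0.25 at 12 weeks, so a pairing by number was not seen. The paper compared limbs of the same mice. These few correlations cannot exclude that equal numbers hold the same mice.

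For 5mC, at least 20 reads gave 4 and 1519 cytosines at 4 and 12 weeks, 3 in the windows at 12 weeks and 1 window with limbs apart at 4 weeks, as did pooling reads over windows (1). A difference of 20 points gave 26 and 8581. Without both libraries of the shared title style, 1433 were called at 12 weeks and 3 in the windows. With overdispersion 0 were called at either time or in the windows. Leaving out 1 library gave 5 to 3039 cytosines at 4 weeks (0 to 3 in the windows, and 3039 without control library 2) and 1641 to 5720 at 12 weeks (2 to 10 in the windows, the most without control library 2), with 3 to 12 and 7 to 11 windows apart. Coverage limits Prg4 to 2 cytosines.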
